A study of Mus musculus with 6 samples.

Results

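Ribosome assembly genes encode the proteins that transcribe, cut, modify and package ribosomal RNA in the nucleolus. The 44 genes described here were listed by function (RNA polymerase I transcription, pre-ribosomal RNA processing, small nucleolar RNA particles and assembly of both subunits). They were matched by symbol in a table of 57170 gene identifiers from whole mouse testis. All 44 were found, and all 44 were among the 17707 genes that passed the count filter. The list was proposed with the values of the same libraries in view. The differences between genotypes among the 44 are therefore given as a description, without p-values.

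The study compared testes of wild-type mice (WT, 2 libraries) with testes of mice labelled sKO (4 libraries), all at postnatal day 5, by sequencing of polyadenylated RNA. The sKO animals carried a conditional knockout of Mdm2 in germ cells that had not entered meiosis. The sources used here do not give the Cre line, its promoter, the strain, the alleles of the WT animals or any pooling of animals. Whether the libraries stem from different animals is not labelled, and the spread behind the p-values may therefore be technical. The submitters' design note states 3 per group, while the sample labels give 2 and 4, and the labels were used.

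Ribosome production starts with RNA polymerase I, which copies the ribosomal DNA into a long precursor. The small-subunit processome folds and cleaves the part of the precursor that becomes the small subunit, small nucleolar ribonucleoproteins (snoRNPs) guide its chemical modification, and further factors build the large subunit and export both. Mdm2 encodes the ubiquitin ligase that keeps the tumour suppressor p53 low. When assembly stalls, a particle of 5S ribosomal RNA with the proteins RPL5 and RPL11 is known to bind MDM2 and to release p53 from it. In the neonatal testis the cells that divide are Sertoli cells, other somatic cells and spermatogonia, the mitotic germ cells.

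Summed expected counts ran from 17.99 to 18.39 M (mega) per library, and replicates differed by more than counting error. Values are CPM, counts scaled to a library of a common size after adjustment of each library's size by a TMM factor. These factors ran from 0.9577 (sKO-4) to 1.055 (WT-1), and small gaps between libraries depend on them. Mdm2 was at 67.2 and 75.9 CPM in the WT libraries and 37.6 to 47.3 CPM in sKO. The libraries fell into a pair of subsets along the first principal component, with WT-1, sKO-1 and sKO-2 in subset 1 and WT-2, sKO-3 and sKO-4 in subset 2. The labels name no batch. Differences within each subset therefore stand beside the pooled ones. Of 26 germ cell markers, 24 fell and 0 rose in sKO (edgeR quasi-likelihood test with Benjamini-Hochberg adjustment). By an unadjusted p under 0.05 also 0 rose. The markers' summed level was 924 to 1303 CPM in WT and 175 to 295 CPM in sKO, none was at 0 in either group, and Dazl, a germ cell gene for an RNA-binding protein, was at 155 and 218 CPM against 29.0 to 45.5 CPM. Without WT-1 the adjusted test called 0 of the germ cell markers, and without any other library 20 to 24, while the log2 fold change of Dazl was −2.34 with all 6 libraries and −2.07 without WT-1. RNA of these markers was a smaller part of every sKO library. Its part in the differences below was not tested. In a bulk sample, fewer cells of a type and less RNA per cell cannot be told apart.

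Most of the 44 genes were lower in sKO testes. Log2 fold changes of sKO against WT ran from −1.22 to 0.17 with a median of −0.27, where the median over all 17707 genes was 0.03. Of the members 40 were below 0 and 4 above, against 44.7% of all genes below 0. In 27 members all 4 sKO libraries lay below both WT libraries (13.3% of all genes), and in 0 members they lay above both (9.79%). By the edgeR test over all genes 6 members were called lower (2.30% of all genes were) and 0 higher (0.124%). The 6 were Heatr1, Mdn1, Utp4, Wdr75, Rrp12 and Ddx21. At an unadjusted p under 0.05, 20 members were lower (8.91% of all genes) and 0 higher (4.17%). DESeq2 called 14 lower and 0 higher (648 and 81 over all genes), and limma-voom 6 and 0 (446 and 18 over all genes). Because the same comparison was in view when the list was made, nothing is read from these counts. Leaving out WT-1 or WT-2 leaves 1 WT library, and the members' median log2 fold change was then −0.22 and −0.36. Leaving out sKO-4 the edgeR test called 3 members lower (225 over all genes). Leaving out any other sKO library it called 2 (103 to 176 over all genes). With the subset as a term it called 22 lower (8.65% of all genes) and 0 higher (4.97%).

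The summed level of the 44 genes was 5797 CPM in WT-1 and 5763 CPM in WT-2. The 4 sKO libraries, in the order of their numbers, had 4791, 4802, 5041 and 5234 CPM, a mean 14.1% below WT. No sKO library reached a WT library. The differences were uneven between members. In 2 members the log2 fold change was at or under −1, in 5 it lay between −1 and −0.5, in 20 between −0.5 and −0.2, and in 17 within 0.2 of 0.

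**Figure D1:**
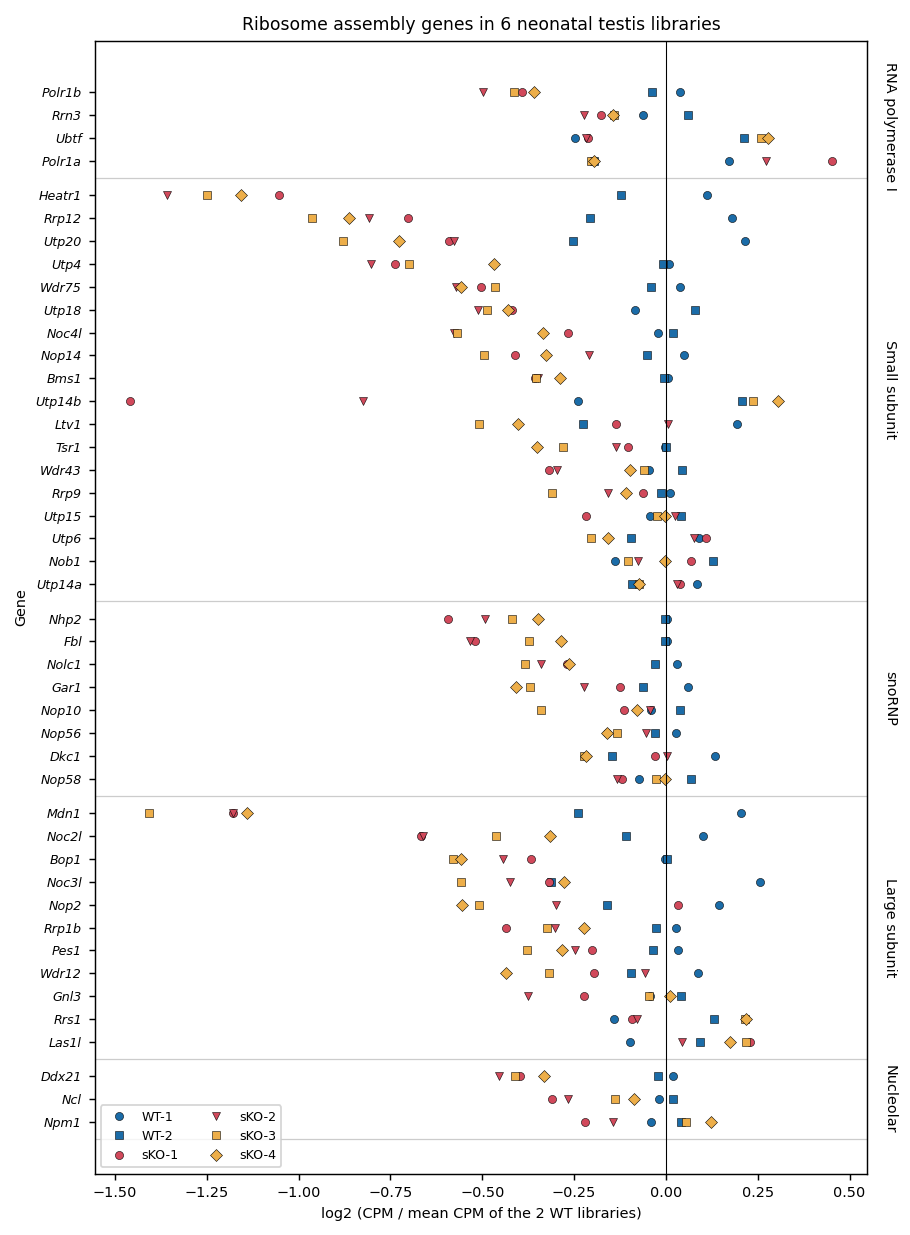
Level of each of the 44 genes in each library, as log2 of its CPM over the mean CPM of the 2 WT libraries, grouped by role and ordered by fold change. All 4 sKO points of Heatr1 and Mdn1 lie far to the left, while of the Utp14b points those of sKO-1 and sKO-2 do, and Polr1a and Ubtf split by library subset.

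Genes of the small-subunit processome and of later 40S assembly held the most members (18), and all 18 were below 0, with a median of −0.30 (−0.36 within subset 1 and −0.31 within subset 2). Heatr1 encodes a large scaffold protein of HEAT repeats that joins the processome early. It was at 115 CPM in WT-1 and 97.8 in WT-2, and at 51.3, 41.5, 44.8 and 47.7 CPM in sKO-1 to sKO-4. Every sKO library lay well below both WT libraries, with means of 106 ± 11.9 CPM (SD, n = 2) and 46.3 ± 4.17 CPM (SD, n = 4) and a log2 fold change of −1.20 (SE 0.11). The difference was −1.30 within subset 1 and −1.08 within subset 2.

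Heatr1 works with Utp4, Utp15, Wdr43, Wdr75 and Nol11 in the transcription-linked (t-UTP) part of the processome, and their differences between genotypes were of unequal size. Utp4 was at 87.9 and 86.9 CPM in the WT libraries and 52.4, 50.1, 53.8 and 63.2 CPM in sKO-1 to sKO-4 (log2 fold change −0.67, SE 0.11). Wdr75 was at 79.3 and 75.0 CPM in the WT libraries and 54.4, 51.9, 55.9 and 52.4 CPM in sKO (−0.52, SE 0.08). For both genes the groups were separate. Wdr43 was at −0.19 (SE 0.10), with sKO-3 and sKO-4 (112 and 109 CPM) just under the lower WT library (113). Utp15 was at −0.05 (SE 0.10) and Nol11, which is not among the 44, at −0.07 (SE 0.10, edgeR adjusted p = 0.864), and in both the groups overlapped.

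Rrp12, a HEAT-repeat protein needed for export of the small subunit, was at 36.5 and 27.9 CPM in the WT libraries and 19.8, 18.4, 16.5 and 17.7 CPM in sKO (log2 fold change −0.83, SE 0.15). Utp20, a scaffold of the processome's outer surface, was at 123 and 88.8 CPM in the WT libraries and 70.3, 71.0, 57.6 and 64.0 CPM in sKO (−0.69, SE 0.15). In both genes WT-1 was well above WT-2, and the groups still did not overlap. Utp18, of the UTP-B complex that organises the start of the precursor, was at −0.46 (SE 0.10), while Utp6 of the same complex was at −0.04 (SE 0.12). Noc4l and Nop14, which bind each other, were at −0.43 and −0.36, and the GTPase Bms1 at −0.34. Rrp9, a protein of the U3 snoRNP, was at −0.16 (SE 0.12).

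Tsr1, Ltv1 and Nob1 act late, in the maturing 40S particle. Tsr1 was at −0.21 (SE 0.10), Ltv1 at −0.25 (SE 0.18) and Nob1, the endonuclease that makes the final cut of the small-subunit RNA, at −0.03 (SE 0.11). In Ltv1 and Nob1 the groups overlapped. The Nob1 difference was 0.14 within subset 1 and −0.18 within subset 2.

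Utp14a and Utp14b are an X-linked gene and its autosomal retrogene copy, and Utp14b is known to be required for spermatogenesis in mice. Utp14a was at 33.8 and 29.9 CPM in the WT libraries and 32.7, 32.5, 30.3 and 30.3 CPM in sKO-1 to sKO-4 (log2 fold change −0.02, SE 0.11), and the groups overlapped. Utp14b was at 20.7 CPM in WT-1 and 28.2 in WT-2, and at 8.89, 13.8, 28.8 and 30.2 CPM in sKO-1 to sKO-4. It was thus lower than WT-1 in sKO-1 and sKO-2 and slightly higher than WT-2 in sKO-3 and sKO-4, with differences of −0.86 within subset 1 and 0.07 within subset 2 and a pooled log2 fold change of −0.26 (SE 0.46). The pooled value therefore describes neither subset. In the RefSeq annotation of GRCm38.p6 Utp14b begins at the same base as Acsl3, a fatty acid ligase gene that it overlaps. Acsl3 was at 70.3 and 63.4 CPM in the WT libraries and 49.9 to 54.9 CPM in sKO. The counts of Utp14b were not whole in 5 of 6 libraries, as estimation gives where reads fit more than 1 gene, and its level is uncertain. This is not particular to Utp14b. Counts were not whole in all 6 libraries for 17 members, Heatr1, Fbl, Ncl and Npm1 among them, and whole in all 6 for 15.

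**Figure D2:**
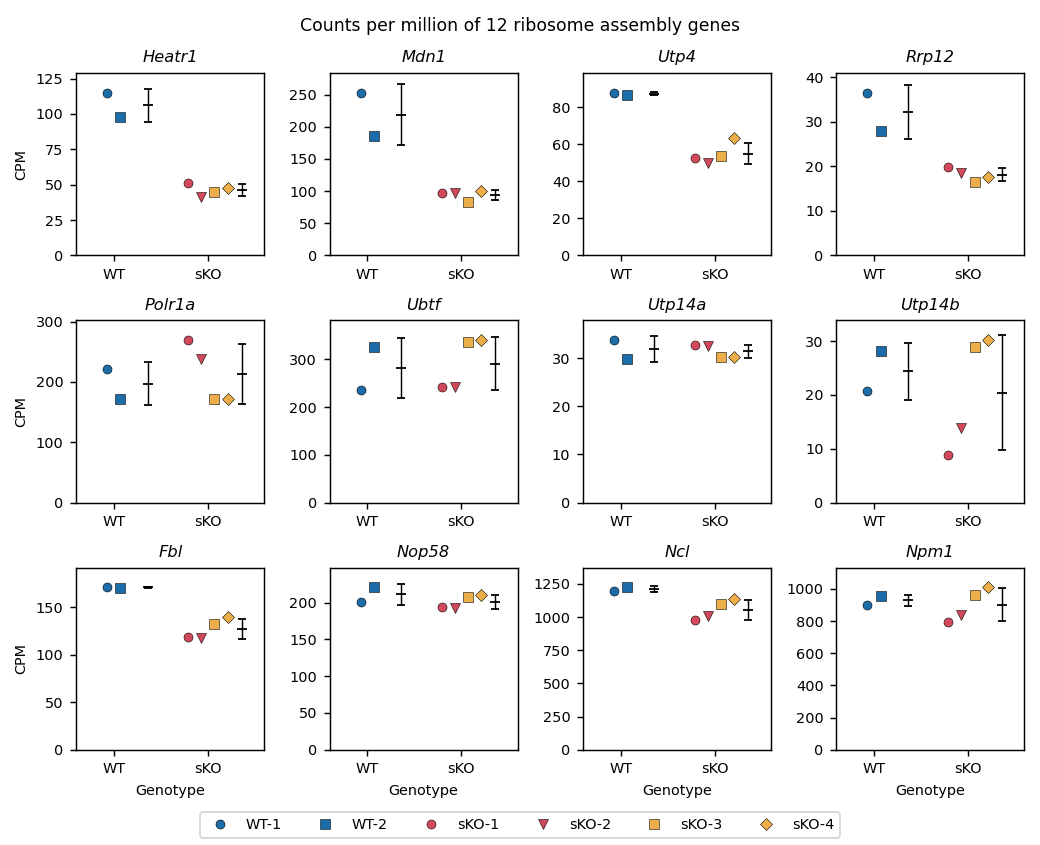
CPM of 12 members in the 2 WT and 4 sKO libraries (linear axes from 0), with the mean and SD of each group as a bar beside the points. Heatr1, Mdn1, Utp4 and Rrp12 are lower in all 4 sKO libraries, whereas the spread of Polr1a, Ubtf and Utp14b follows the library subsets.

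Sequences before start sites are printed as examples, which do not stand for the 44 members. They come from Heatr1, Utp4 and Utp18, whose sKO and WT libraries were separate, and from the Utp14a and Utp14b pair, where these overlapped. Each is the 250 bases before the RefSeq start in GRCm38.p6, 5′ to 3′ on the gene's strand, in lower case with the E-box CACGTG (the site of MYC with MAX) and the ETS core CCGGAAG (or its complement CTTCCGG) in capitals. Heatr1 lies at chr13:12395125-12395374 (+), Utp4 at chr8:106893390-106893639 (+), Utp18 at chr11:93885767-93886016 (−), Utp14a at chrX:48256684-48256933 (+) and Utp14b at chr1:78658190-78658439 (+). These are coordinates of that build, not of the build of the counts.
Heatr1: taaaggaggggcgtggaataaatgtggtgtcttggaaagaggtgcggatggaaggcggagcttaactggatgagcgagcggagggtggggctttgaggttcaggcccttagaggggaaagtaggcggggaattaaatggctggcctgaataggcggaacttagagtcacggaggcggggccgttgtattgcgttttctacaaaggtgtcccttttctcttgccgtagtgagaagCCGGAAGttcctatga
Utp4: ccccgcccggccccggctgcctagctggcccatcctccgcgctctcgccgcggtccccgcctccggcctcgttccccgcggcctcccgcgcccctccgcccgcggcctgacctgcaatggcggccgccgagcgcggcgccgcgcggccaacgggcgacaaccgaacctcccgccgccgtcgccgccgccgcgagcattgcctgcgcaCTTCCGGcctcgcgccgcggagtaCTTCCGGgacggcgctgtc
Utp18: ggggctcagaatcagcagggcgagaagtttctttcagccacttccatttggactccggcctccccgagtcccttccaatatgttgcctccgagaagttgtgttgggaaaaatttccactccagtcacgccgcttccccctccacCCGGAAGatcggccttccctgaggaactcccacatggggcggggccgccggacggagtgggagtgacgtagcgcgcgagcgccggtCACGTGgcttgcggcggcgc
Utp14a: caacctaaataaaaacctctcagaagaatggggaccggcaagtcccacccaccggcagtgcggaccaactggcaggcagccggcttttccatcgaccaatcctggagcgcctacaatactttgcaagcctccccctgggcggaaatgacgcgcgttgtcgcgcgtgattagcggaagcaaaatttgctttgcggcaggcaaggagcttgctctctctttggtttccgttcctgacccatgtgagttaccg
Utp14b: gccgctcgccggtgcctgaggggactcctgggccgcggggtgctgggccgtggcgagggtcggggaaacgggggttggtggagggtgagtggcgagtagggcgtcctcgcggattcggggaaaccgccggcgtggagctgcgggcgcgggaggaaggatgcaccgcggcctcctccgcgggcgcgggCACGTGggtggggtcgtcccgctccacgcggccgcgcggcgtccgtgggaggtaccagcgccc
Heatr1 holds 1 ETS core and Utp4 holds 2, all within the last 50 bases. Utp18 holds both motifs, Utp14b an E-box and Utp14a neither. Of the 44 members, 38 had a RefSeq promoter entry (250 bases before to 50 after a start), and Rrs1, Npm1, Rrp12, Bop1, Fbl and Utp6 had none. Both strands were searched for 8 motifs, and a gene counted where any of its starts had a match. CACGTG was found in 11 of the 38 members (28.9%), in 14.8% of the 108 other ribosome assembly genes with an entry, in 11.3% of the tested genes and in 8.09% of all 27025 genes with an entry. The 11 were Mdn1, Utp20, Utp4, Utp18, Nop2, Pes1, Utp14b, Ltv1, Tsr1, Wdr43 and Rrn3. The match of Utp4 is not in the bases printed, which leave out those after the start and any other start of the gene. CCGGAAG was found in 14 members (36.8%), in 41.7% of the other assembly genes, in 18.2% of the tested genes and in 9.93% of all genes. Of the members called lower, Heatr1 and Utp4 had it, Mdn1, Wdr75 and Ddx21 did not, and Rrp12 had no entry. Las1l, the member with the highest log2 fold change (0.17), also had it. The median log2 fold change was −0.28 in the members with CACGTG and −0.24 in those without, and −0.33 with CCGGAAG and −0.20 without.

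Of the other motifs, CACGCG was in 28.9% of members and 18.8% of tested genes, GATGAG (the core of the PAC element of yeast ribosome assembly genes) in 13.2% and 11.8%, and TATAAA, the TATA box, in 5.26% and 9.20%. The NRF1 site, the YY1 site AAGATGGCG and the Kaiso element were in 0 members and in 2.12%, 3.11% and 1.05% of tested genes. A match describes letters in this window only, and matches of different motifs can overlap.

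Members that drive RNA polymerase I (4) showed no common direction. Polr1a, the largest subunit, was at 222 CPM in WT-1 and 172 in WT-2, and at 269.6, 238, 171 and 172 CPM in sKO-1 to sKO-4. Its level followed the subsets, with a difference of 0.19 within subset 1 and 0.00 within subset 2, and the pooled log2 fold change was 0.11 (SE 0.21). Ubtf, which opens the ribosomal DNA for the polymerase, did the reverse. It was at 237 and 326 CPM in the WT libraries and 243, 242, 337 and 341 CPM in sKO, so that subset 2 was higher by 0.48 on the log2 scale, and the difference between genotypes was 0.05 (SE 0.20). The small positive values of Polr1a and Ubtf turned negative (−0.05 and −0.10) when library size was set to Sertoli cell genes.

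Polr1b, the other large subunit, was at 57.8 and 54.8 CPM in the WT libraries and 42.9, 39.9, 42.3 and 43.9 CPM in sKO (−0.41, SE 0.09). Here the libraries of each genotype lay close together and the groups were separate. Rrn3, which brings the polymerase to the promoter, was at −0.17 (SE 0.08), with 82.6 and 90.0 CPM in WT and 73.9 to 78.2 CPM in sKO. The summed level of the 4 genes was 599 and 643 CPM in WT and 594 to 635 CPM in sKO.

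All 8 genes of the snoRNPs were below 0, and their median was −0.21 (−0.19 in subset 1 and −0.27 in subset 2). The box C/D particle adds methyl groups to ribosomal RNA. Its enzyme gene Fbl was at 171 and 170.5 CPM in the WT libraries and 119, 118, 132 and 140.1 CPM in sKO (log2 fold change −0.42, SE 0.10). Its core partners differed less. Nop56 was at −0.13 (SE 0.08), and Nop58 was at 200.5 and 221 CPM in the WT libraries and 194, 192, 207 and 210.3 CPM in sKO (−0.07, SE 0.09). Fbl thus had separate groups, while those of Nop58 overlapped.

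The box H/ACA particle converts uridines to pseudouridine. Nhp2 was at 49.6 and 49.4 CPM in the WT libraries and 32.8, 35.2, 37.0 and 38.9 CPM in sKO (−0.46, SE 0.10). Gar1 was at −0.28 (SE 0.12), Nop10 at −0.14 (SE 0.12) and the enzyme Dkc1 at −0.11 (SE 0.12). Of these 4 the groups overlapped in Dkc1 alone. Nolc1, a chaperone of both kinds of snoRNP, was at −0.31 (SE 0.08).

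Of the genes of large-subunit assembly (11), 9 were below 0, and their median was −0.32 (−0.27 in subset 1 and −0.28 in subset 2). Mdn1, a giant AAA ATPase that strips assembly factors from the pre-60S particle, had the largest difference of all members. It was at 253 CPM in WT-1 and 186 in WT-2, and at 96.9, 96.9, 82.7 and 99.6 CPM in sKO-1 to sKO-4, a log2 fold change of −1.22 (SE 0.13). The WT libraries differed from each other, and yet the lower of them stood well above every sKO library. Within subset 1 the difference was −1.39 and within subset 2 it was −1.03.

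Pes1, Bop1 and Wdr12 form the PeBoW complex, which is needed to process the large-subunit RNA. Bop1 was at 35.7 and 35.8 CPM in the WT libraries and 23.9 to 27.7 CPM in sKO (−0.48, SE 0.11), Pes1 was at −0.28 (SE 0.08), and Wdr12 at −0.24 (SE 0.13), with overlapping groups in Wdr12 alone. Noc2l was at −0.52 (SE 0.13), with −0.77 within subset 1 and −0.28 within subset 2, and its partner Noc3l at −0.39 (SE 0.17), with −0.63 and −0.10. Rrp1b was at −0.32 (SE 0.10), the RNA methyltransferase gene Nop2 at −0.32 (SE 0.18) and the nucleolar GTPase gene Gnl3 (nucleostemin) at −0.15 (SE 0.12). In Noc3l, Nop2 and Gnl3 the groups overlapped.

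The members above 0 in this set were Las1l and Rrs1. Las1l, an endonuclease that cuts the spacer ahead of the large-subunit RNA, was at 106 and 121 CPM in the WT libraries and 133, 117, 132 and 128 CPM in sKO (0.17, SE 0.10). Rrs1, which helps to place the 5S particle, had a log2 fold change of 0.07 (SE 0.14), with 0.06 within subset 1 and 0.09 within subset 2, and was higher in subset 2 by 0.29. In both the groups overlapped, and the Rrs1 value became −0.07 with Sertoli library sizes.

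Transcripts of nucleolin (Ncl) and nucleophosmin (Npm1), abundant nucleolar proteins that bind RNA and histones, differed little. Ncl was at 1194 and 1226 CPM in the WT libraries and 976, 1006, 1099 and 1139 CPM in sKO (log2 fold change −0.20, SE 0.10), with sKO below WT in each library. Npm1 was at 902 and 954 CPM in the WT libraries and 796, 840.5, 963 and 1011 CPM in sKO (−0.04, SE 0.12). Npm1 was lower than WT-1 in sKO-1 and sKO-2 and higher than WT-2 in sKO-3 and sKO-4. The gap between sKO-3 and WT-2 was small and depends on their TMM factors (0.9634 and 0.9789). The helicase Ddx21 was at 143 and 139 CPM in the WT libraries and 107, 103, 106 and 112 CPM in sKO (−0.40, SE 0.08), with separate groups in both subsets.

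Per kilobase of coding sequence, Npm1 had the highest level over the 6 libraries, followed by Ncl, Nop10 and Fbl. The values were 1040.0, 522, 181 and 145 CPM per coding kilobase. The lowest were Rrp12 (5.87), Mdn1 (8.10), Utp14b (9.30), Utp20 (9.45) and Heatr1 (10.3). Of these 5, all but Utp14b were also the 4 members with the largest differences between genotypes. The level is a mean that includes the 4 sKO libraries, so a member lower in sKO also ranks lower. The match is therefore partly built in, and nothing is read from it. Reads of untranslated parts are included in the counts and not in this length, so the order is approximate.

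Of the 4 members with the largest differences, Mdn1, Heatr1 and Utp20 had long coding sequences, and Rrp12 (3885 bases, log2 fold change −0.83) a shorter one. The 4 members of at least 5000 coding bases were Mdn1 (16767), Utp20 (8367), Heatr1 (6429) and Polr1a (5151). Their log2 fold changes were −1.22, −0.69, −1.20 and 0.11. Across the 44 members, Spearman's rho between coding length and log2 fold change was −0.39 and Pearson's r was −0.63. Across the 137 other assembly genes they were −0.38 and −0.46, and across all 14414 tested genes with a coding sequence −0.08 and −0.06. Mdn1 is by far the longest member, and Pearson's r gives such a point much weight. The value without Mdn1 was not computed. All these points share the same 6 libraries, and genes are not independent replicates. The 645 tested genes of at least 5000 coding bases had a median of −0.04, against 0.03 for the 13769 shorter ones.

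**Figure D3:**
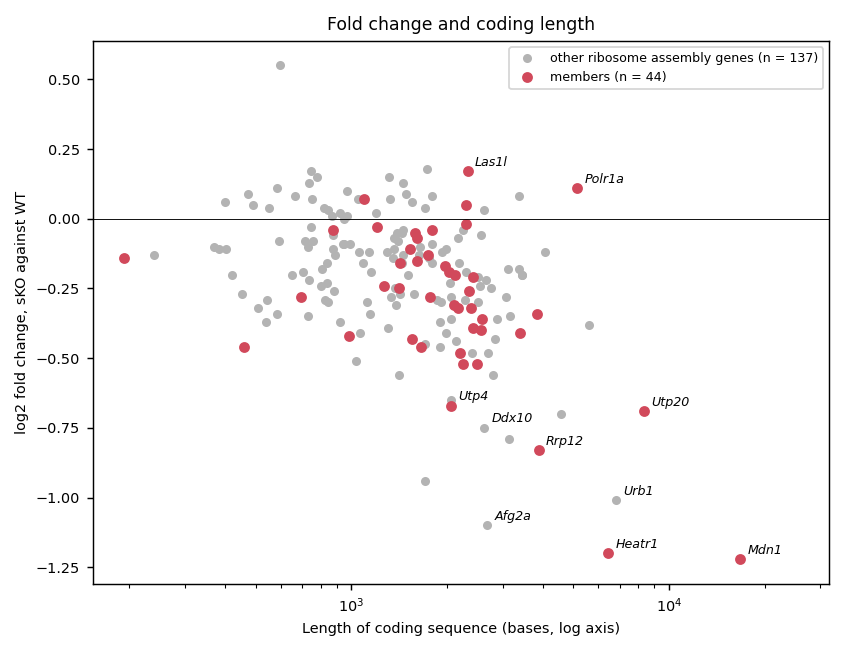
Log2 fold change of sKO against WT against the length of the coding sequence (log axis) for the 44 members (red) and 137 other ribosome assembly genes (grey), with 1 point per gene. Mdn1, Heatr1, Utp20 and Urb1 are long and low, while Polr1a is long and lies just above 0.

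Within the subsets the difference was negative in both for 35 of the 44 members. The exceptions were Utp14a, Utp14b, Utp6, Npm1 and Nob1, whose signs were opposite, and Polr1a, Ubtf, Rrs1 and Las1l. The median of the 44 was −0.27 within subset 1 and −0.26 within subset 2. For 14 members the log2 gap between the subsets was larger than the gap between genotypes. It was largest for Utp14b (1.01), Polr1a (−0.50) and Ubtf (0.48), counted as subset 2 minus subset 1.

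**Figure D4:**
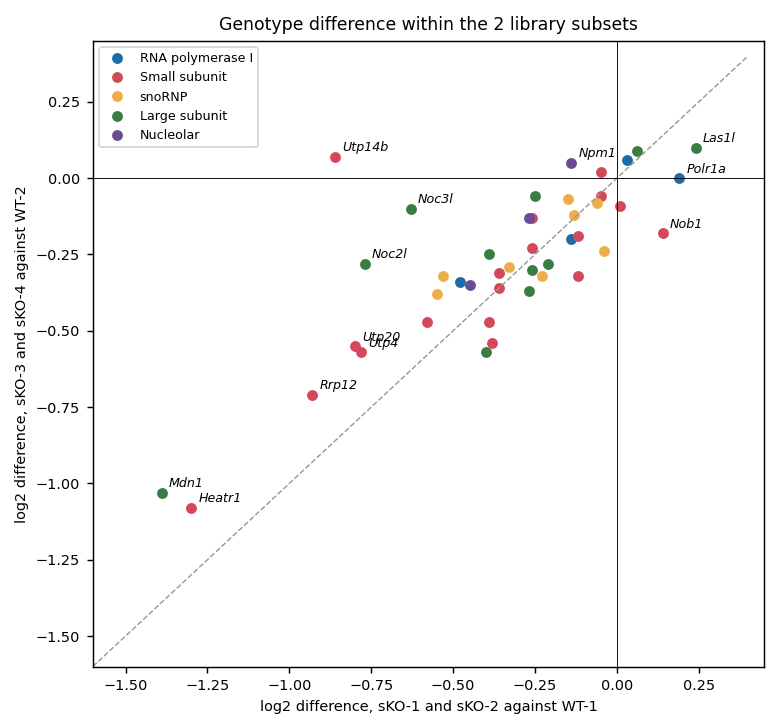
Log2 difference of sKO from WT within subset 1 (horizontal) and subset 2 (vertical) for the 44 members, coloured by role, with the dashed line marking equal values. Mdn1 (−1.39 and −1.03) and Heatr1 (−1.30 and −1.08) lie far down in both, and Utp14b (−0.86 and 0.07) lies farthest from the line.

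Other ribosome assembly genes, listed from textbook knowledge apart from the 44, were tested in the same fit. Of 138 listed, 137 were in the table and tested. By the edgeR test 4 fell, which is 2.92% against 2.30% of all genes and so close to the background, and 0 rose. By DESeq2 and limma-voom also 0 rose, and 1 was higher at an unadjusted p under 0.05 while 41 were lower. The median log2 fold change was −0.16 (−0.15 and −0.17 within the subsets), 107 of 137 genes (78.1%) were below 0, and in 57 (41.6%) the sKO libraries lay below both WT libraries. Over all genes these shares were 44.7% and 13.3%. With the subset as a term 40 fell (29.2%, against 8.65% of all genes) and 1 rose. That subset was known from these libraries, so those p-values may be too small.

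The genes that fell were Afg2a, Urb1, Ddx10 and Wdr36. Afg2a (also called Spata5), an AAA ATPase that releases a shuttling factor from new 60S particles, was at 87.1 and 90.0 CPM in the WT libraries and 37.7, 32.7, 42.1 and 52.9 CPM in sKO (log2 fold change −1.10, SE 0.17, edgeR adjusted p = 0.0243). Urb1, a large scaffold of the early 60S particle, was at 36.1 and 27.7 CPM in the WT libraries and 18.9, 17.1, 11.8 and 15.5 CPM in sKO (−1.01, SE 0.20, edgeR adjusted p = 0.0483). Ddx10, a helicase of the processome, was at 97.0 and 82.7 CPM in the WT libraries and 61.1, 52.0, 49.3 and 51.7 CPM in sKO (−0.75, SE 0.12, edgeR adjusted p = 0.0237). Wdr36, of the UTP-B complex, was at 84.2 and 78.4 CPM in the WT libraries and 57.3, 59.3, 56.8 and 59.3 CPM in sKO (−0.48, SE 0.08, edgeR adjusted p = 0.0291). In all 4 genes every sKO library lay below both WT libraries.

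The calls were lost when single libraries were left out, with fewer libraries to estimate the spread, while the fold changes kept their direction. Without WT-1 the edgeR adjusted p was 0.216 for Afg2a, 0.438 for Urb1, 0.265 for Ddx10 and 0.291 for Wdr36. Afg2a kept its call without sKO-4 (0.0158) and lost it without WT-2 (0.0963) or any of the other sKO libraries (0.0509 to 0.0666). Ddx10 kept it without WT-2 (0.0424) or sKO-1 (0.0337) and lost it without sKO-2 (0.0754), sKO-3 (0.0679) or sKO-4 (0.0560). Urb1 and Wdr36 lost theirs without any one library, with values of 0.0682 to 0.107 for Urb1 and 0.0685 to 0.0978 for Wdr36 when a library other than WT-1 was left out. Urb1 also lost it with upper-quartile factors (0.0675), Sertoli library sizes (0.0557) or the filter of 1 CPM in 4 libraries (0.0546). With each library left out in turn the log2 fold changes lay between −1.22 and −0.80 for Urb1, −0.89 and −0.63 for Ddx10, and −0.56 and −0.43 for Wdr36. Over all alternatives that of Afg2a lay between −1.34 and −0.93.

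By role, 2 of 44 other small-subunit genes fell (median −0.16), 2 of 52 other large-subunit genes (−0.19), 0 of 11 other polymerase I genes (−0.11), 0 of 10 other snoRNP genes (−0.11) and 0 of 20 genes of the exosome and RNase MRP, which trim and cut the precursor (−0.20). At an unadjusted p under 0.05 the lower genes of the last 3 lists numbered 1, 1 and 4 and the higher ones 0, 0 and 1. In those lists DESeq2 called 1, 1 and 0 genes lower and limma-voom 0, and none of these tools called a gene of any of the 5 lists higher. The most abundant genes of those 3 lists were Taf1d (0.01, edgeR adjusted p = 0.995) and Polr1d (0.06, 0.869), Snu13 (−0.11, 0.646) and Ruvbl1 (−0.25, 0.591), and Mtrex (−0.18, 0.412) and Dis3 (−0.36, 0.405). None of these 6 passed in the fit without a subset term. With the subset as a term Ruvbl1 (−0.26, edgeR adjusted p = 0.0364), Mtrex (−0.18, 0.0491) and Dis3 (−0.37, 0.0117) were lower, and the 3 lists then had 1, 2 and 4 genes lower and 0, 0 and 1 higher (8.65% and 4.97% of all genes). In fits within each subset, which hold 1 WT library, the log2 fold change of Dis3 was −0.50 in subset 1 and −0.27 in subset 2.

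**Figure D5:**
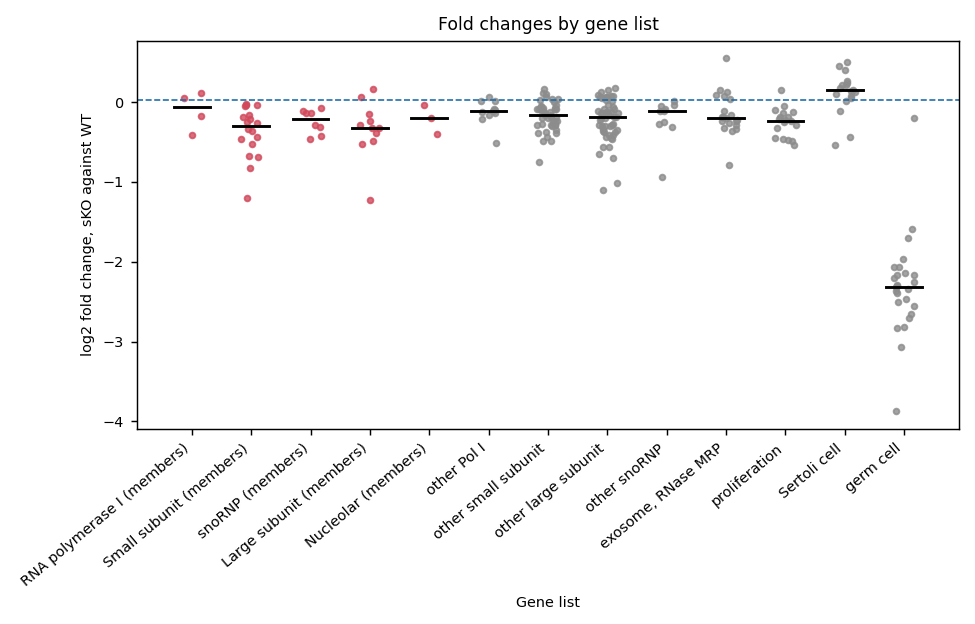
Log2 fold change of sKO against WT for each gene (point) in each list, with the list's median as a black bar and the median of all 17707 tested genes (0.03) as a dashed line. The member lists (red) lie from −0.06 to −0.32 in median and the germ cell markers at −2.32.

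Genes of the 5S particle that binds MDM2 did not pass the test in the fit without a subset term. Rpl11 was at 443 and 537 CPM in the WT libraries and 574, 536, 587 and 606 CPM in sKO (log2 fold change 0.23, SE 0.11, edgeR adjusted p = 0.423), and the groups overlapped at sKO-2. Rpl23, whose protein also binds MDM2, was at 0.18 (SE 0.10, edgeR adjusted p = 0.510), with every sKO library above both WT libraries. Of the 5 genes 0 passed in either direction in edgeR, and 1 was lower and 0 higher at an unadjusted p under 0.05, while their median was 0.18. DESeq2 and limma-voom also called 0. With the subset as a term edgeR called 1 of the 5 lower and 2 higher (8.65% and 4.97% of all genes), the latter being Rpl11 (0.24, edgeR adjusted p = 0.0263) and Rpl23 (0.19, edgeR adjusted p = 0.0398). Of 7 genes of the MYC network, whose proteins bind the E-box, 0 passed in edgeR, DESeq2 or limma-voom or with the subset term, and 0 had an unadjusted p under 0.05. Their median was −0.10, with Mycn at −0.05 (SE 0.20, edgeR adjusted p = 0.960) and Mxi1 at −0.10 (SE 0.08, edgeR adjusted p = 0.710).

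Lists of cell division and of other cells were read beside the members. Of 18 proliferation genes 2 fell and 0 rose (median −0.23), namely the mitotic cyclin Ccnb1 (−0.53, edgeR adjusted p = 0.0276) and the helicase subunit Mcm7 (−0.45, edgeR adjusted p = 0.0473), and their summed level was 2653 and 2805 CPM in WT and 2112 to 2452 CPM in sKO. Without sKO-4 the test called 1 of them, and without any other library 0. Of 18 Sertoli cell markers Amh rose (0.45, edgeR adjusted p = 0.0429) and 0 fell (1 by DESeq2 and 1 at an unadjusted p under 0.05). The Amh call was lost without any one of the 6 libraries, as it was under RLE scaling. It was also lost under scaling by Sertoli cell genes. That loss is partly built in, since these 18 markers, Amh among them, set that scale. The summed level of the 18 markers was 5839.8 and 6943 CPM in WT and 6763 to 7417 CPM in sKO. Of 8 Leydig, 10 stromal, 7 endothelial and 8 macrophage and blood markers 0 passed in edgeR, with medians of 0.33, 0.08, 0.23 and 0.12. At an unadjusted p under 0.05, 2 stromal markers were lower and 1 higher and 2 macrophage and blood markers higher, and DESeq2 called 1 stromal marker lower and 1 macrophage and blood marker higher. With the subset as a term edgeR called 1 Leydig, 2 stromal, 1 endothelial and 2 macrophage and blood markers higher and 2 stromal markers lower. The part of these lists in the differences of the ribosome assembly genes was not tested. When libraries were scaled by Sertoli cell genes, the median over all genes moved from 0.03 to −0.12 and that of the 44 members from −0.27 to −0.42.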

How the data were processed

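Polyadenylated RNA of whole testis was measured in 2 WT and 4 sKO libraries, grouped by the labelled genotype. Per the submitters' processing notes the tools were fastp, STAR and RSEM with build mm39, with no versions or strand setting given. The deposited table holds the authors' RSEM expected counts per gene for 57170 identifiers, which were rounded to whole counts. Of these, 51742 (90.5%, with 99.2% of counts) were matched to symbols in GENCODE M21, whose coding lengths were used, and 444 identifiers were not Ensembl ones.

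Genes passing edgeR's filter at a minimum count of 10 (17707) were fitted with TMM factors in edgeR 4.0.16 (R 4.3.3, quasi-likelihood, Benjamini-Hochberg, threshold 0.05, two-sided), after tests on simulated data. DESeq2 1.42.0, limma 3.58.1 (voom), other size factors and filters, each library left out, a replicate block and a subset term were alternatives, and fits within each subset, of libraries 1 and 2 and of unrounded counts were chosen after seeing the data. No libraries were pooled, since the chi-square per gene between replicates ran from 4.08 to 24.7. It was 4.08 for sKO-3 with sKO-4 and 6.83 for sKO-1 with sKO-2. Between sKO libraries of different subsets it was 20.3 to 24.7, and between the WT libraries 22.1. The 4 sKO libraries thus formed close pairs, and the tests and SDs treat them as independent.

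The members and lists were chosen with earlier results of these data known. Per-library values were to be given for the largest rise and fall of each role, Utp14a, Utp14b, Ncl, Npm1 and Fbl, and of each other list the 4 genes of smallest adjusted p or else the 2 most abundant. Utp4, Wdr75, Rrp12, Utp20, Ubtf, Nol11, Acsl3 and the length and level comparisons were added after their values were seen.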

Additional observations from a re-analysis of the deposited data

Results flagged for a closer look

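In Bms1 the highest sKO library, sKO-4, was at 97.0 CPM, set apart from the other 3 (92.5 to 93.1 CPM) by more of the group's range than Dixon's limit for 4 values allows. In Mdn1 the lowest sKO library, sKO-3, was at 82.7 CPM, against 96.9 to 99.6 CPM in the others, and passed the same limit. Chance alone marks about 1 in 20 groups in this way.

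In 4 members the sKO libraries of subset 1 lay on one side of their WT library and those of subset 2 on the other. The log2 differences in subsets 1 and 2 were −0.86 and 0.07 for Utp14b, −0.14 and 0.05 for Npm1, 0.14 and −0.18 for Nob1, and −0.05 and 0.02 for Utp14a. The difference between the subsets was not tested.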

How the results depend on the processing

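Leaving out each library in turn gave 1 to 225 lower and 2 to 7 higher genes overall (408 and 22 with all 6), 0 to 4 lower members (6), 0 to 2 other assembly genes (4), 0 to 24 germ cell markers (24), 0 to 1 proliferation genes (2) and 0 Sertoli cell markers higher (1). The members' median then ran from −0.36 to −0.22 and that of the other assembly genes from −0.20 to −0.15. Members called higher numbered 0 under all alternatives.

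DESeq2 called 648 genes lower and 81 higher, 14 members and 13 other assembly genes lower, and 2 Sertoli cell markers higher. Sertoli library sizes gave 538 lower and 11 higher genes, 12 lower members, 14 lower assembly genes and 4 proliferation genes. The median was then −0.42 for the members and −0.32 for the other assembly genes. It called 0 Sertoli cell markers higher, which is partly built in, since these markers set that scale. Limma-voom, RLE and upper-quartile factors each called 1 proliferation gene, and RLE called 0 Sertoli cell markers. Without a count filter 7 other assembly genes were lower (541 over all genes). With the subset as a term 1531 genes were lower and 880 higher, with 22 members, 40 other assembly genes (1 higher), 8 proliferation genes and 4 Sertoli cell markers. Subset 1 alone gave 946 lower and 282 higher genes, 13 members, 20 assembly genes, 8 proliferation genes and 3 Sertoli cell markers. Subset 2 alone gave 267 higher genes, 12 members, 13 assembly genes, 5 proliferation genes and 3 Sertoli cell markers.

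The numbers in the labels did not pair the libraries. Deviations from the group means correlated at 0.416 for WT-1 with sKO-1 and at 0.441 for WT-1 with sKO-2. With 2 WT libraries the values of WT-2 are these with the sign reversed (−0.416 and −0.441) and add nothing of their own. With the replicate block on libraries 1 and 2 there were 268 lower genes, 4 lower members, 0 proliferation genes, 0 Sertoli cell markers and a median of −0.19 for the other assembly genes. Under the block Urb1 and Wdr36 lost their calls (edgeR adjusted p = 0.0814 and 0.152), and Ddx10 and Afg2a kept theirs (0.0492 and 0.00434). Without the block in the same 4 libraries Urb1, Wdr36 and Ddx10 lost theirs (0.103, 0.115 and 0.0877). The same 4 libraries without the block gave 187 lower and 9 higher genes, 3 members, 2 assembly genes, 0 proliferation genes, 0 Sertoli cell markers and a median of −0.19. The cause of these shifts was not tested. Fold changes of the members moved by less than the spread between sKO libraries in 751 of the recomputed values and by more in 85. The sign changed under at least 1 alternative in Polr1a, Ubtf, Utp6, Utp14a, Utp14b, Nob1, Dkc1, Rrs1 and Npm1, none of which was called in the fit of all 6 libraries. Utp14b was among the 4 members called lower under the replicate block and was called under no other alternative. Its log2 fold change ran from −1.13 to 0.06 over all alternatives.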
